A study of Mus musculus with 3 samples.

Results

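The expression of 40 genes that mark cardiac macrophages and other myeloid cells was described in the left ventricle of C57BL6J mice. The genes were taken by symbol from a list chosen with earlier results of these data known. Shares of members given below therefore describe this list and test nothing. The genes come out of 15503 with a value in any of the 3 deposited tables, and all 40 had a value in every library. They comprise 6 markers of resident macrophages (Folr2, Lyve1, Cd163, Mrc1, F13a1 and Retnla), 31 general myeloid genes and 3 markers of activated macrophages (Lgals3, Trem2 and Gpnmb). The study sequenced 1 library per genotype, each from pooled RNA of 3 mice. The first pool is Egln1 floxed, the control, which the design text calls wild type. The second is Egln1Tie2Cre, in which Cre recombinase driven by the Tie2 promoter deletes Egln1, the gene of the oxygen sensor PHD2. The third is labelled Egln1/Hif2aTie2Cre, in which Hif2a, the protein of the gene Epas1, is targeted as well, and is called the labelled double-deletion library below. The labels state neither age nor sex. The Tie2 promoter is active in endothelium and also in blood-forming cells, from which many macrophages descend, and recombination in macrophages was not tested.

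Resident macrophages of the heart settle largely before birth, renew locally, and clear debris through scavenger receptors. Monocytes recruited from blood replace or join them under stress. Macrophages depend on the transcription factor PU.1 (Spi1) and on the CSF1 receptor, and their surface carries Fc receptors, complement receptors and integrins that report antibody, opsonised particles and damage. Macrophages also make all chains of C1q, the first component of the classical complement pathway.

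Values are FPKM, that is, fragment numbers scaled by transcript length and library size, and are given in the order floxed, Egln1Tie2Cre, labelled double deletion unless stated otherwise. Log2 ratios were computed on FPKM + 1, and folds beside FPKM values are plain ratios. Because every genotype has a single library, no difference could be checked against replicates or tested. In the authors' deposited tables, whose q-values compare 2 libraries and not 2 genotypes, 0 of the 40 genes reached a q-value of 0.05 in any comparison. The lowest was 0.595, for Lyz2 between the labelled double-deletion and Egln1Tie2Cre libraries.

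Egln1 itself had an FPKM of 129.5, 95.7 and 129.0, and Epas1 had 77.4, 65.0 and 54.5. The Egln1 value of the third library thus goes against the Egln1 part of its label, although most RNA of a ventricle comes from cardiomyocytes, in which the Tie2 promoter is not active. Cardiomyocyte genes marked the tissue as labelled, with Tnnt2, cardiac troponin T, at 7761, 8947 and 8673. The lowest FPKM of genes with 1 transcript fell on regular steps, from which 1 fragment was worth 0.0438, 0.046 and 0.035 FPKM × kb. The smaller the worth of 1 fragment the deeper the library, so the labelled double-deletion library was the deepest. Of the 144, 133 and 129 values used, 90.3%, 94.7% and 88.4% lay within 0.15 of a whole number of fragments. Fragment numbers quoted below are estimates from these steps and are not scaled for depth. Their 95% exact Poisson intervals cover counting error only, not the spread between mice.

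Regulatory sequence is shown for Retnla and Lgals3, the members with the largest ratios of Egln1Tie2Cre over floxed in each direction on FPKM + 1, and for C1qb and C1qc, neighbours with the same order of libraries. The sequences come from RefSeq on GRCm38.p6 and lie within 250 bases before a transcription start, less any base in an annotated GENCODE exon. They are written 5′ to 3′ on the strand of the gene. Capitals mark matches, on either strand, to the PU.1 core GAGGAAG, the STAT6 spacing, TTC and GAA with any 4 bases between them (STAT6 acts below the interleukin-4 receptor), or the HIF cores ACGTG and GCGTG. The HIF cores can overlap each other across strands, and a match is a description, not a binding site. Retnla lies at chr16:48842359-48842550, plus strand. C1qb lies at chr4:136886201-136886450 and C1qc at chr4:136893066-136893164, both on the minus strand. Lgals3 lies at chr14:47373610-47373812, plus strand, before a start inside the annotated gene. The stretches end 58 bases before the start for Retnla, 151 for C1qc and 47 for Lgals3, and at the start for C1qb.
Retnla: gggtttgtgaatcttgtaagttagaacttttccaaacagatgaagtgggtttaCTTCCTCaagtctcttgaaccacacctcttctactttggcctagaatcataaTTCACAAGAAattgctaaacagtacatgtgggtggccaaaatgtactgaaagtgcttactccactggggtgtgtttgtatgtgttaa
C1qb: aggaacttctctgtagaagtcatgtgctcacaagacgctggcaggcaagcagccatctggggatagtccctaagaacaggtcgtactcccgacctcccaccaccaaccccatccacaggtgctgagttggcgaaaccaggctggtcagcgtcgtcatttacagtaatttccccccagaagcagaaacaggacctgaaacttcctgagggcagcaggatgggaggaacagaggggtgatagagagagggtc
C1qc: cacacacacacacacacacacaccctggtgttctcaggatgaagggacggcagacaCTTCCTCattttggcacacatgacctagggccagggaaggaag
Lgals3: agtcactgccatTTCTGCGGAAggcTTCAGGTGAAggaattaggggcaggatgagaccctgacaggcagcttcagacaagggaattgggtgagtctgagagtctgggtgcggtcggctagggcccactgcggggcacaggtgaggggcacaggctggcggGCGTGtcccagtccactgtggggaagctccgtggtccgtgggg

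The Retnla stretch holds 1 PU.1 core, read on the opposite strand as CTTCCTC, and 1 STAT6 spacing. C1qc holds 1 PU.1 core and C1qb holds 0 matches to any of the motifs. Lgals3 holds 2 STAT6 spacings and 1 HIF core. Of the 40 members, 31 matched the promoter table with 36 promoters. C1qa, Cd14, Cd52, Csf1r, Itgb2, Lyve1, Ncf4, Spi1 and Tyrobp were not matched. The PU.1 core occurred in 11 of these 36 windows of 250 bases (30.6%), against 10.6% of 32851 promoters in the table. The STAT6 spacing occurred in 5 (13.9%), against 5.85%, and a HIF core in 5 (13.9%), against 38.6%. The HIF core windows belong to Fcer1g, Fcgr3, Lgals3 and Trem2.

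**Figure D1:**
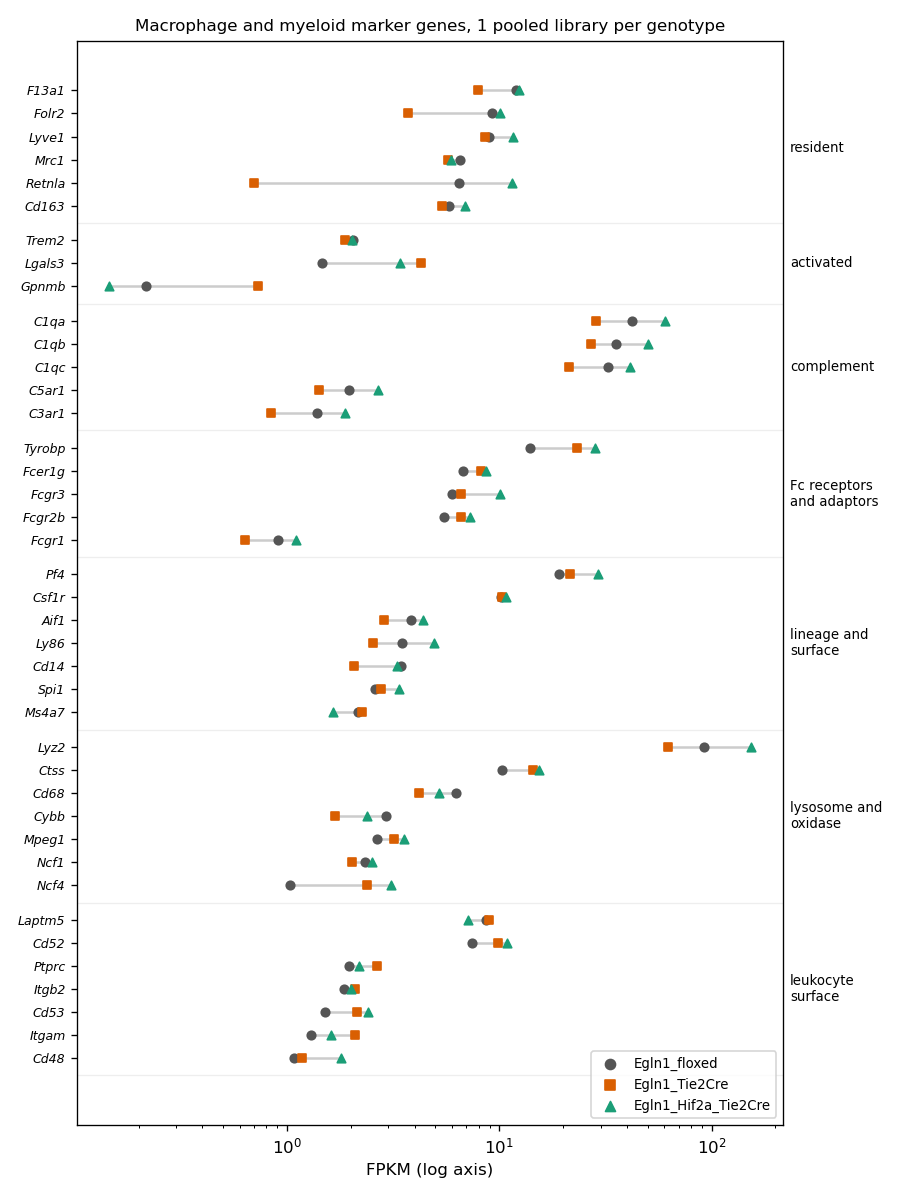
FPKM on a log axis of the 40 marker genes in each of the 3 pooled libraries (circle, floxed; square, Egln1Tie2Cre; triangle, labelled double deletion), grouped by role and ordered by the floxed value. Retnla spans the widest range, from 0.697 to 11.5, and all 6 resident markers have the Egln1Tie2Cre square at the left end. Of all genes, 36.2% were lowest in that library.

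Resident macrophage markers were lowest in the Egln1Tie2Cre library, all 6 of them, but by very unequal amounts. That library was lowest for 36.2% of all genes. Retnla, a secreted resistin-like protein of alternatively activated macrophages (GRCm38 chromosome 16, 48842551 to 48844461), had an FPKM of 6.48, 0.697 and 11.5. Its Egln1Tie2Cre value was 9.30-fold below floxed and 16.5-fold below the labelled double-deletion library. It rested on about 6 fragments (95% Poisson interval 2.20 to 13.1), against about 59 (44.9 to 76.1) and 131 (109.5 to 155). Counting error alone thus leaves the Egln1Tie2Cre interval below both others. Folr2, folate receptor beta (chromosome 7, 101839988 to 101857194), had 9.27, 3.72 and 10.1, which is 2.49-fold lower in Egln1Tie2Cre than in floxed. Its estimates of about 212 (184 to 243), 81 (64.3 to 101) and 291 (259 to 326) fragments, for the longest coding transcript, put the Egln1Tie2Cre library apart in the same way. The floxed and labelled double-deletion libraries were within 1.09-fold of each other for this gene.

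F13a1, the A subunit of clotting factor XIII, had 11.95, 7.95 and 12.4, with the Egln1Tie2Cre value 1.5-fold below floxed. The remaining resident markers differed little. Lyve1, a hyaluronan receptor also found on lymphatic vessels, had 8.98, 8.60 and 11.7. Cd163, the haemoglobin scavenger receptor, had 5.77, 5.35 and 6.93, and Mrc1, the mannose receptor, had 6.57, 5.71 and 5.90. The resident median log2 ratio was -0.35 for Egln1Tie2Cre over floxed, against 0.02 over all genes tested. The list thus ranged from 1.05-fold to 9.30-fold lower, and 2 of its 6 members, Retnla and Folr2, were at least 2-fold lower on FPKM + 1, where 3.84% of 11978 genes were. In bulk ventricle, fewer cells of a type and less RNA per cell cannot be told apart, here or in any result below.

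Activated macrophage markers did not move as a group. Lgals3, galectin-3, a carbohydrate-binding protein of activated macrophages (chromosome 14, 47367751 to 47386160), had 1.46, 4.27 and 3.43. It was 2.93-fold and 2.35-fold above floxed in the libraries with Cre, at about 41 (29.4 to 55.6), 113 (93.1 to 136) and 119 (98.6 to 142) fragments. Gpnmb, a transmembrane glycoprotein of lipid-laden macrophages, was the lowest member in the floxed library and had 0.217, 0.728 and 0.146. Its mean stayed below the FPKM of 1 required for a count in all 3 comparisons, so its 3.36-fold higher value in Egln1Tie2Cre enters none. The estimates behind it were about 17 (9.90 to 27.2), 55 (41.4 to 71.6) and 15 (8.40 to 24.7) fragments. Trem2, a lipid-sensing receptor that signals through Tyrobp, had 2.04, 1.87 and 2.02, with all 3 Poisson intervals overlapping. Lgals3 was thus higher than floxed in both libraries with Cre, Gpnmb in Egln1Tie2Cre only, and Trem2 in neither.

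Lgals3 is not limited to macrophages, and some genes of other cells were also higher in Egln1Tie2Cre. Krt19, a keratin of mesothelium and other epithelia, had 0.218, 13.7 and 0.169, and Krt18, a keratin of simple epithelia, had 0.255, 7.21 and 0.204. Neither keratin was above floxed in the labelled double-deletion library, where Lgals3 was 2.35-fold above it. Of the mesothelial and epithelial list, 4 of 7 genes had a value in all libraries and summed to 0.704, 21.4 and 1.02 FPKM. Upk3b, a defining mesothelial gene named after its values were seen, had 0.122, 0.0429 and 0.538, the reverse of the keratins. Msln and Upk1b had no value under these symbols. The part of such cells in the Lgals3 and Gpnmb values was not tested.

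Complement genes were the most uniform group of general myeloid members. C1qa, C1qb and C1qc encode the chains of C1q and lie in a row on chromosome 4, C1qb at 136880129 to 136886187, C1qc at 136889804 to 136893065 and C1qa at 136895917 to 136898803. C1qa had 42.1, 28.5 and 60.3. C1qb had 35.3, 27.0 and 50.2, and C1qc had 32.6, 21.4 and 41.3. The receptors for the complement fragments C3a and C5a were far lower in level but had the same order of libraries. C3ar1 had 1.39, 0.840 and 1.88, and C5ar1 had 1.96, 1.41 and 2.68. All 5 genes were lowest in Egln1Tie2Cre and highest in the labelled double-deletion library, where 19.1% of all genes had that order. Between those libraries, 5 of 5 were at least 1.5-fold higher on FPKM + 1 in the labelled double deletion, where 9.67% of all genes were. As plain ratios, C3ar1 was 2.24-fold apart and C1qa 2.12-fold.

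The C1 inhibitor Serping1, made mainly by other cells, did not share that order and had 44.6, 49.6 and 49.9. Cd93, a receptor of endothelium and myeloid cells once described as a C1q receptor, did share it, at 19.9, 11.4 and 24.3, but shares near-identical stretches with other transcripts and is uncertain. Of 6 classical partners counted, 4 were above floxed and 2 below in Egln1Tie2Cre, where 51.9% and 48.1% of all genes were.

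Fc receptor genes and their signalling adaptors had another order, with the floxed library lowest for 4 of 5, where it was lowest for 30.1% of all genes. Tyrobp, the adaptor DAP12 that carries an activation motif for Trem2 and other receptors (chromosome 7, 30413760 to 30417585), had 13.99, 23.1 and 28.2. It was 1.65-fold above floxed in Egln1Tie2Cre and 2.01-fold above in the labelled double-deletion library. Fcer1g, the common gamma chain of Fc receptors, had 6.73, 8.19 and 8.68. The longest coding transcripts of Tyrobp and Fcer1g have 564 and 683 bases. All genes under 1 kb had a median log2 ratio over floxed of 0.23 in Egln1Tie2Cre and 0.34 in the labelled double-deletion library. The part of transcript length in these 2 genes was not tested. Fcgr3, a low-affinity activating receptor for IgG, had 6.01, 6.60 and 10.04, and Fcgr2b, the inhibitory receptor, had 5.49, 6.64 and 7.28. Fcgr3 and Fcgr2b are near-identical over part of their transcripts and their values are uncertain. Fcgr1, the high-affinity IgG receptor, was the exception at 0.909, 0.635 and 1.10, and its mean was below the filter in the comparisons with Egln1Tie2Cre. Kinases below these receptors showed little, with Syk at 6.94, 8.57 and 6.42 and Lyn, which has a copy, at 6.82, 7.54 and 6.51. Of 8 ITAM and Fc signalling genes counted, 0 were at least 1.5-fold above or below floxed in Egln1Tie2Cre on FPKM + 1, where 18.2% of all genes were. The largest of these differences was that of Ptpn6, a phosphatase that restrains such signals, named after its values were seen, at 4.36, 2.65 and 2.67.

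Lineage genes were balanced between Egln1Tie2Cre and floxed, 4 above and 3 below with a median log2 ratio of 0.01. In the labelled double-deletion library 6 of 7 were above Egln1Tie2Cre, with a median of 0.42, where 47.5% of all genes were above. Csf1r, the receptor for CSF1 and interleukin-34, had 10.2, 10.3 and 10.8 but overlaps another coding gene and is uncertain. Spi1, which encodes PU.1, had 2.61, 2.77 and 3.36. Aif1, the actin-binding protein IBA1, had 3.86, 2.88 and 4.38, Cd14, the lipopolysaccharide co-receptor, had 3.44, 2.08 and 3.29, and Ly86, the partner of a Toll-like receptor relative, had 3.49, 2.54 and 4.93. These last 3 were lowest in Egln1Tie2Cre, as the complement genes were. Ms4a7, a tetraspanning membrane protein, had 2.17, 2.25 and 1.65, the opposite at the labelled double-deletion end. Pf4, a chemokine of platelets and of resident macrophages, had 19.1, 21.4 and 29.1. Itga2b, a platelet integrin, had 1.48, 0.312 and 0.667, a different order from Pf4.

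A ligand of Csf1r and factors beside Spi1 were lower in Egln1Tie2Cre, though none at 1.5-fold. Csf1, the main macrophage growth factor, had 19.2, 13.3 and 18.2. Of 7 genes in this list of ligands and regulators, 6 passed the filter. All 6 were below floxed in Egln1Tie2Cre and above Egln1Tie2Cre in the labelled double-deletion library, with medians of -0.25 and 0.50. Of all genes, 48.1% were below floxed in the first comparison and 47.5% above Egln1Tie2Cre in the second.

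Lysosomal and oxidase genes went both ways. Lyz2, lysozyme of macrophages and neutrophils and the most abundant member, had 91.9, 62.5 and 153. Its value in the labelled double-deletion library was 2.45-fold above Egln1Tie2Cre. Lyz2 shares near-identical sequence with Lyz1 and is uncertain. Ncf4, a cytosolic subunit of the phagocyte NADPH oxidase (chromosome 15, 78244801 to 78262580), had 1.03, 2.37 and 3.08, or about 30 (20.2 to 42.8), 65 (50.2 to 82.8) and 111 (91.3 to 134) fragments. It was 2.98-fold above floxed in the labelled double-deletion library. The other subunits went both ways. Cybb, the catalytic subunit, had 2.92, 1.68 and 2.37, and Ncf1, another cytosolic subunit, which overlaps another coding gene, had 2.32, 2.03 and 2.51. Cyba, the membrane partner of Cybb, had 31.3, 36.9 and 44.7, the order of Ncf4. Of 3 oxidase partners counted, 2 were above floxed and 1 below in Egln1Tie2Cre. Ctss, a cysteine protease of antigen-presenting cells, had 10.3, 14.4 and 15.4, and Cd68, a lysosomal membrane protein, had 6.23, 4.19 and 5.23. Mpeg1, the pore-forming perforin-2, had 2.66, 3.2 and 3.57.

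Leukocyte surface genes, which mark white cells in general, were all higher in Egln1Tie2Cre than in floxed, where 51.9% of all genes were. None was higher by 1.5-fold on FPKM + 1, where 9.46% of all genes were. Ptprc, the pan-leukocyte phosphatase CD45, had 1.96, 2.66 and 2.20. Itgam and Itgb2, the chains of the integrin CD11b/CD18, had 1.30, 2.08 and 1.61 and 1.86, 2.09 and 2.01, both uncertain through an overlap or a copy. Laptm5, a lysosomal protein of blood cells, had 8.68, 8.92 and 7.09. Cd53, a tetraspanin, had 1.52, 2.14 and 2.42, Cd52, a small glycoprotein whose gene overlaps another, had 7.44, 9.88 and 10.9, and Cd48, a SLAM-family ligand, had 1.08, 1.18 and 1.79. The 7 genes had a median log2 ratio of 0.31, while the 5 complement genes had -0.38 in the same comparison.

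Across all members, the comparison of Egln1Tie2Cre with floxed was balanced. Of 38 members with a mean FPKM of at least 1, 1 was at least 2-fold higher on FPKM + 1 (Lgals3). At least 2-fold lower on that scale were 2 (Retnla and Folr2). The background was 3.93% higher and 3.84% lower among 11978 genes, or 7.77% in either direction, against 7.89% of the members, so the members' share was that of any gene. At 1.5-fold, 3 were higher (Lgals3, Ncf4 and Tyrobp) and 3 lower (Retnla, Folr2 and C1qc), with 9.46% and 8.73% in the background, or 18.2% in either direction. Members above and below floxed numbered 19 and 19, where 51.9% and 48.1% of all genes were. The median log2 ratio was -0.02, against 0.02 over all genes. The general myeloid median was 0.05 over 30 members.

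**Figure D2:**
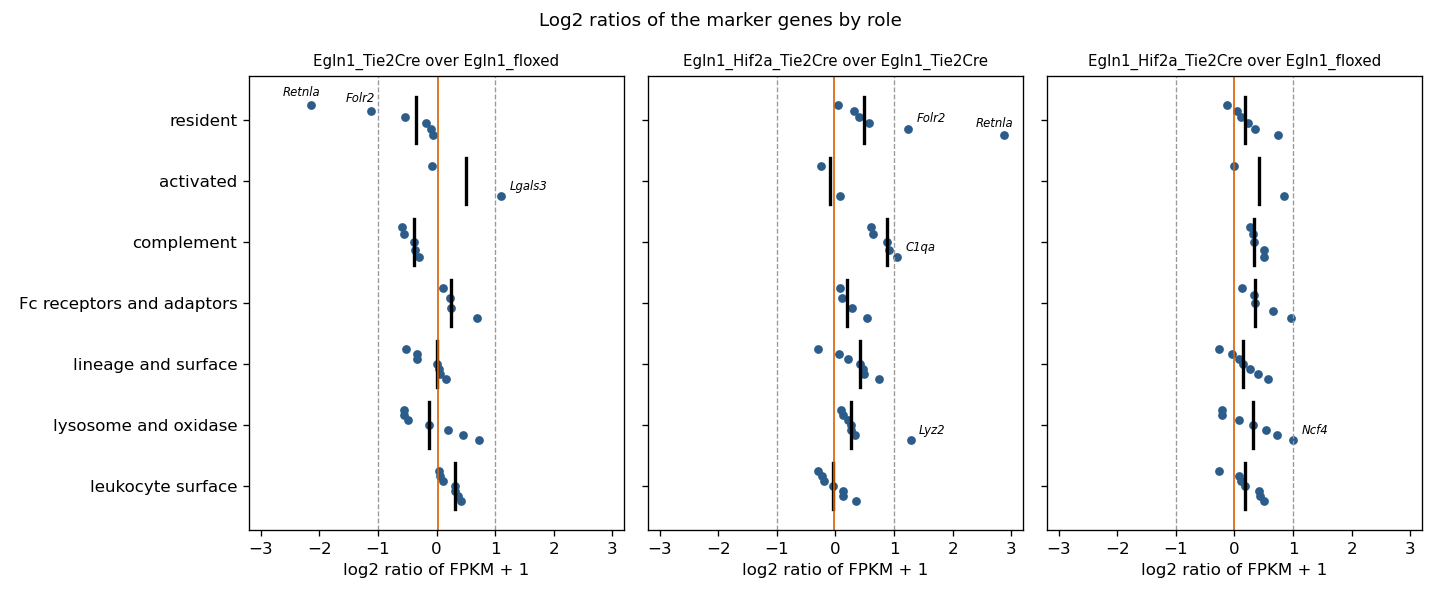
Log2 ratio of FPKM + 1 for each member with a mean FPKM of at least 1, by role, in the 3 comparisons. Black bars are role medians, the orange line is the median of all genes tested, and dashed lines mark 2-fold. In the left panel the complement median (-0.38) lies below 0 and the leukocyte surface median (0.31) above it.

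The labelled double-deletion library stood above Egln1Tie2Cre for most members. Of 38 members, 4 were at least 2-fold higher on FPKM + 1 (Retnla, Lyz2, Folr2 and C1qa) and 0 lower. Of 11999 genes, 4.31% were higher and 4.08% lower by that much. In either direction, 10.5% of the members were apart against 8.38% of all genes. At 1.5-fold, 9 were higher and 0 lower, with 9.67% and 9.64% in the background, or 19.3% in either direction. Above Egln1Tie2Cre were 32 of 38 members (84.2%), where 47.5% of all genes were, and 6 were below, where 52.5% were. The median log2 ratio was 0.27 for all members, 0.49 for resident and 0.27 for general myeloid members, against -0.02 over all genes. Leukocyte surface genes were the exception, with 3 of 7 above and a median of -0.04.

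Against floxed, the labelled double-deletion library was higher for 32 of 39 members (82.1%), where 49.4% of 11888 genes were, and lower for 7, where 50.6% were. The differences were small. On FPKM + 1, Ncf4 alone was at least 2-fold higher and 0 were lower, with 0.538% and 0.437% in the background. In either direction this was 2.56% of members against 0.976%. At 1.5-fold, 6 were higher and 0 lower, with 4.42% and 3.28% in the background, or 7.7% in either direction. The 6 were Ncf4, Tyrobp, Lgals3, Retnla, Lyz2 and Fcgr3. Medians were 0.31 for all members, 0.17 for resident and 0.32 for general myeloid members, against -0.00 over all genes. These comparisons share libraries and are not independent of each other, and the members were chosen with earlier results of these data known.

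Transcript length moved with this difference. Genes with a longest transcript under 1 kb had a median log2 ratio of 0.34 in the labelled double-deletion library over floxed, and genes over 4 kb had -0.11. Members were above all genes in each class, with 0.54 against 0.34 for 6 members under 1 kb and 0.50 against 0.15 for 13 of 1 to 2 kb. The medians were 0.14 against 0.01 for 11 of 2 to 4 kb and 0.11 against -0.11 for 9 over 4 kb. After centring within deciles of length the member median was 0.21 and Ncf4 was no longer 2-fold higher.

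**Figure D3:**
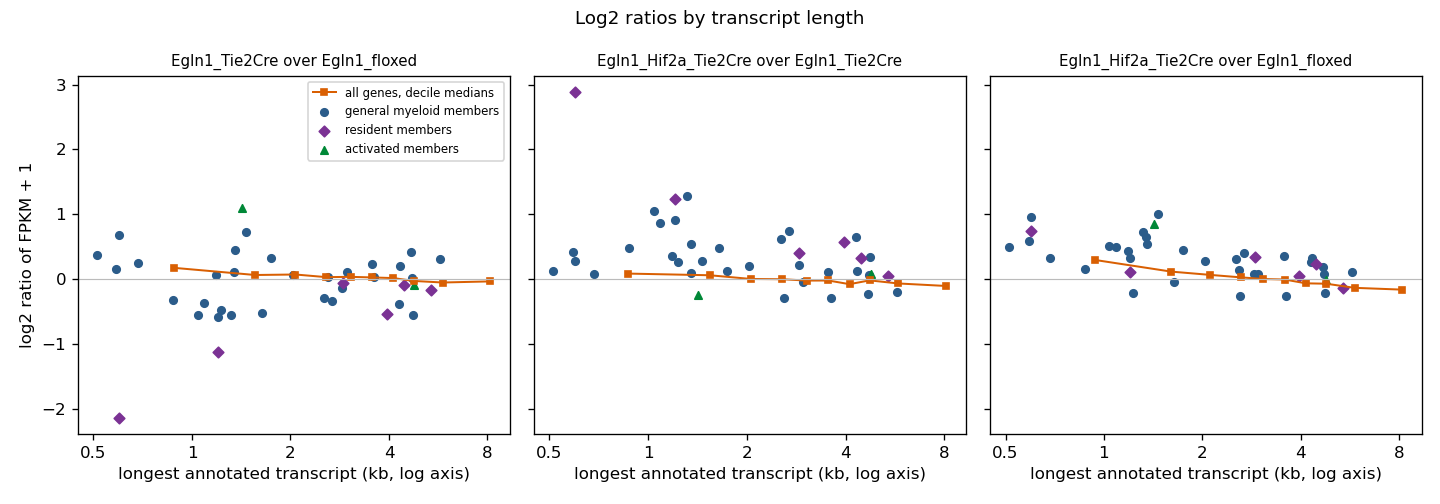
Log2 ratio of FPKM + 1 against the longest annotated transcript (kb, log axis) in the 3 comparisons, with members as points by class and decile medians of all genes as the orange line. In the right panel the line falls from short to long genes and most members lie above it.

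Placed in order over the 3 libraries, 27 of 38 members (71.1%) were highest in the labelled double-deletion library, where 30.9% of 11968 genes were, and 6 in Egln1Tie2Cre, where 39.6% were. The lowest library was Egln1Tie2Cre for 19 (36.2% of all genes), floxed for 17 (30.1%) and the labelled double deletion for 2, Ms4a7 and Laptm5 (33.7%). For 14 members Egln1Tie2Cre was lowest and the labelled double deletion highest, where 19.1% of all genes had that order. They were 5 of 6 resident markers, all but Mrc1, and 9 general myeloid members, namely the 5 complement genes, Aif1, Ly86, Lyz2 and Ncf1. With floxed lowest were 16 general myeloid members and Lgals3. Summed FPKM was 49.0, 32.0 and 58.5 for resident, 333, 288 and 483 for general myeloid and 3.72, 6.86 and 5.59 for activated markers. Lyz2 alone contributed 91.9, 62.5 and 153 to the general myeloid sum.

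Other white cells moved alongside these markers. Neutrophil genes were far higher in Egln1Tie2Cre, with S100a8 at 0.489, 22.7 and 3.32 and S100a9 at 1.47, 31.9 and 6.30, both calcium-binding proteins abundant in neutrophils and monocytes. The 6 of 13 neutrophil markers with 3 values summed to 4.91, 61.7 and 12.5. All 6 were highest in Egln1Tie2Cre, where 39.6% of all genes were, but only 3 passed the filter against floxed. The defining genes Ly6g, Mpo and Elane had no value under these symbols. The 8 recruited monocyte genes with values summed to 3.43, 6.45 and 3.50, and 7 of the 8 were highest in Egln1Tie2Cre, against 39.6% of all genes. Most of their values were below an FPKM of 1. Of the 11 genes in that list, 2 passed the filter for Egln1Tie2Cre over floxed. For the labelled double deletion over Egln1Tie2Cre, 0 passed. The exception was Ccr2, the receptor for monocyte chemoattractants, at 1.07, 0.610 and 1.11, and among the 7 was Plac8 at 0.739, 1.27 and 0.323. T and NK cell markers (8 genes) summed to 7.47, 6.20 and 9.43 and B cell markers (4 genes) to 4.79, 2.80 and 4.85. Lyz2, Itgam, Itgb2, Tyrobp, Fcer1g and Ptprc are also expressed by neutrophils or lymphocytes. The part of these cells in the member values was not tested.

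Further genes linked to resident macrophages went both ways. Cx3cr1, the fractalkine receptor, had 1.17, 0.586 and 2.26, and was at least 2-fold higher in the labelled double-deletion library than in Egln1Tie2Cre. Cd36, a fatty acid transporter shared with endothelium and muscle, had 432, 465 and 392. Gas6, a bridging ligand for the clearance receptor Mertk whose gene overlaps another, had 58.6, 72.9 and 45.9. Of the 8 counted for Egln1Tie2Cre over floxed, 4 were higher and 4 lower. Some genes of this list, named after their values were seen, were lowest in Egln1Tie2Cre and highest in the labelled double-deletion library. Among them were Cbr2, a carbonyl reductase, at 16.0, 10.3 and 18.3, and Timd4, a phosphatidylserine receptor, at 1.08, 0.280 and 1.33. Timd4 was below the filter in both comparisons with Egln1Tie2Cre. Hpgd, which breaks down prostaglandins, had 3.68, 2.70 and 4.88, and Slco2b1, an anion transporter, had 5.68, 4.09 and 6.07. Other genes of the list, also named after their values were seen, did not share that order. Vsig4 had 0.497, 0.934 and 0.455, and Cd209g, which has a copy, had 0.198, 0.363 and 0.0395, both the reverse. Siglec1, at 0.761, 0.464 and 0.672, was highest in floxed. Clec10a, which has a copy, was lowest in floxed, at 0.981, 1.17 and 1.63. Stab1, a scavenger receptor whose gene overlaps another, had 20.9, 32.8 and 25.8, with Egln1Tie2Cre highest. Lymphatic markers, which share Lyve1, summed to 25.4, 22.5 and 29.4 over 5 genes. Of these, 3 were above floxed and 2 below in Egln1Tie2Cre, with a median log2 ratio of 0.05. The lower sum came mainly from Prox1, a lymphatic transcription factor named after its values were seen, at 9.33, 6.26 and 8.10.

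**Figure D4:**
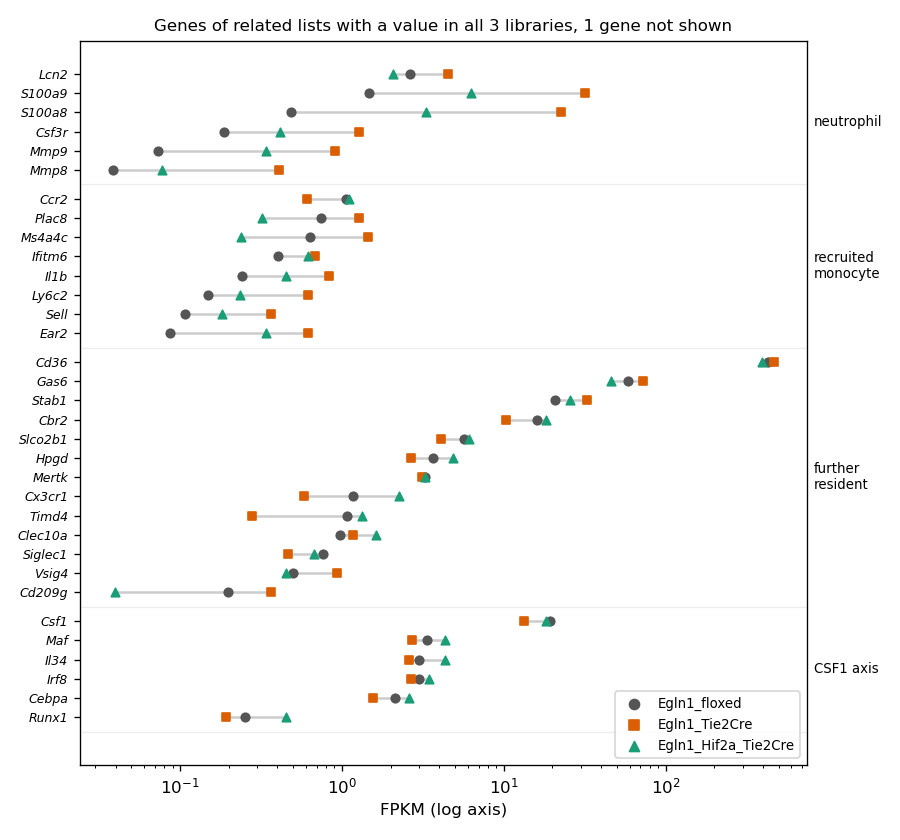
FPKM on a log axis for genes of 4 related lists with a value in all 3 libraries, with 1 gene not shown (symbols as for the marker genes). Neutrophil genes have the Egln1Tie2Cre square at the right end, and the CSF1 list has it at the left end.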

How the data were processed

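RNA of 3 mice per genotype was pooled and sequenced, giving 3 libraries. Per the submitters' processing notes the authors used TopHat2 and Cuffdiff, with versions, genome build and annotation not given in the sources used here. The deposited values are FPKM, with a q-value and a fold ratio per gene from the authors' own test of each pair, per the file headers. Columns were assigned from the titles in each table's name and checked on recurring values (14368 of 14369 floxed values identical, and every value of the other libraries). Log2 ratios used a pseudocount of 1 and, per pair, genes whose average FPKM reached 1. A gene was counted at 2-fold on that scale. Single-library groups allow no p-value. The calculations were tested on simulated data.

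Fragment estimates took the transcript length less 200 bases. Copies were sought with blastn 2.17.0 (95% identity over 100 bases, GENCODE M21), and 8 members have a copy or overlap. Promoters came from RefSeq. Named were all members, the targeted genes and, of 21 other lists, the 2 most abundant genes and up to 3 at least 2-fold apart. Members and lists were chosen with earlier results of these data known. Alternatives were a pseudocount of 0.1, no filter, a filter of 5, a 1.5-fold threshold, median centring, no copies, and, chosen after seeing the data, centring by length. Some genes that the naming rule selects are not reported here.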

Additional observations from a re-analysis of the deposited data

How the results depend on the processing

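No paired analysis was possible because each genotype has 1 library, and for the same reason no replicate could be left out. Centring on the median of all genes, and leaving out the 8 members with a copy or overlap, kept every count within 1.5 times and every median within 0.1. For Egln1Tie2Cre over floxed, members 2-fold higher numbered 2 with a pseudocount of 0.1, 0 at a mean FPKM of at least 5 and 3 at 1.5-fold. Members lower numbered 1 at a mean FPKM of at least 5, where the resident median was -0.17, because Retnla fell below the filter. The activated median, of 2 genes, was 0.68 with a pseudocount of 0.1. For the labelled double deletion over Egln1Tie2Cre, 9 members were higher at 1.5-fold, the median of all members was 0.40 at a mean FPKM of at least 5, and the activated median was -0.25 with no filter. For the labelled double deletion over floxed, members higher numbered 3 with a pseudocount of 0.1, 0 at a mean FPKM of at least 5, 6 at 1.5-fold and 0 after centring by length. There the general myeloid median was 0.50 at a mean FPKM of at least 5 and 0.21 after centring by length, as was that of all members. The activated median was 0.58 with a pseudocount of 0.1 and reversed to -0.010 with no filter, where Gpnmb entered. Of 115 ratios of single members, 31 moved by over 0.1 with a pseudocount of 0.1 and 33 after centring by length, and no ratio of 2-fold or more changed sign. The cause was not tested. The depth limits Retnla in Egln1Tie2Cre and Gpnmb most, and spread between mice cannot be estimated.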

Other observations

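Genes of lipid-handling and scar-associated macrophages, most of them also expressed by muscle, fibroblasts or endothelium, went both ways. Lpl, lipoprotein lipase, had an FPKM of 1387, 1827 and 1563 in the floxed, Egln1Tie2Cre and labelled double-deletion libraries. Ctsd, a lysosomal aspartic protease whose gene overlaps another, had 469.5, 715 and 435. Cd63, a tetraspanin of late endosomes, had 130.3, 63.2 and 184, and Fabp5, a fatty acid binding protein, had 31.8, 14.9 and 39.6. Both have near-identical copies and are uncertain. Of 9 genes counted, 4 exceeded floxed by 1.5-fold in Egln1Tie2Cre and 2 lay below it by that much on FPKM + 1, where 9.46% and 8.73% of all genes did.

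Genes of the interleukin-4 and interleukin-13 pathway, through which Retnla is known to be induced, were mostly higher in Egln1Tie2Cre. For Egln1Tie2Cre over floxed 4 passed the filter, and all 4 were higher, where 51.9% of all genes were. For the labelled double deletion over Egln1Tie2Cre, 1 was above and 4 were below, where 47.5% and 52.5% of all genes were. Il4ra, a receptor chain named after its values were seen, had 2.84, 5.03 and 2.84. Stat6, the transcription factor of that pathway, whose gene overlaps another, had 18.7, 19.0 and 17.6, and Il13ra1, a receptor chain, had 15.3, 16.8 and 14.1. Ccl8, a chemokine, had 1.18, 3.87 and 1.14, the reverse of the order of Retnla. Ccl24, another chemokine, named after its values were seen and below the filter against floxed in Egln1Tie2Cre, had 0.966, 0.761 and 1.67, the order of Retnla. The ligands Il4 and Il13 and the products Arg1 and Chil3 had no value under these symbols.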
